A study of Homo sapiens with 8 samples.

Results

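The genes described here are 6 matrix metalloproteinases (MMPs), MMP7, MMP1, MMP2, MMP9, MMP14 and MMP15, and 3 tissue inhibitors of metalloproteinases (TIMPs), TIMP1, TIMP2 and TIMP3. They were picked by symbol, and all 9 were found among the 34694 rows of the deposited signal table. The cells were Huh-1, an established line of human hepatocellular carcinoma, and total RNA was measured on Illumina bead arrays. One group received a control siRNA (siControl) and the other an siRNA against LSD1 (siLSD1), the histone demethylase encoded by KDM1A. In both groups the transfected cells stood for 48 h and then spent 24 h at 1% O2, so that hypoxia is common to all samples and no normoxic sample was analysed here. Each group held 2 biological replicates with 2 technical arrays each, 8 arrays in all. The model is a single cell line with transient knockdown, and nothing in the labels says how many siRNA sequences were used. MMP7 was singled out because earlier results of these arrays showed it among the largest differences, so the comparison of siLSD1 with siControl is given for the 9 genes as a description, with no test.

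MMPs are zinc-dependent endopeptidases that cut collagens, laminins, elastin and other matrix proteins, and also shed or release proteins at the cell surface. They are made as inactive precursors, are activated by removal of a propeptide, and are held in check by TIMPs, small secreted proteins that occupy the active site. In the liver, most MMPs and TIMPs are known from stellate cells, macrophages and injured or fibrotic tissue, while MMP7 is known as an epithelial MMP of bile duct and carcinoma cells and as a target gene of Wnt signalling in intestinal tumours.

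The sequences before the gene starts are shown for MMP7, whose level differed most among the 9 genes between the groups, and for MMP15 and TIMP1, which were detected on all arrays with smaller differences. They are RefSeq sequences of build GRCh38.p14, the 250 bases before each gene's start, printed 5′ to 3′ on the gene's strand. RefSeq's promoter table held 5 of the 9 genes, MMP7, MMP14, MMP15, TIMP1 and TIMP3. The MMP7 stretch is chr11:102530748-102530997 (minus strand), the MMP15 stretch chr16:58025504-58025753 (plus strand) and the TIMP1 stretch chrX:47582186-47582435 (plus strand). Capitals mark matches on either strand to the AP-1 element TGAGTCA, the ETS-family element AGGAAG, the TCF/LEF elements CTTTGAA and CTTTGTT, the TATA box TATAAA, the GC box GGGCGG and the hypoxia response cores ACGTG and GCGTG. No marked matches overlap.
MMP7: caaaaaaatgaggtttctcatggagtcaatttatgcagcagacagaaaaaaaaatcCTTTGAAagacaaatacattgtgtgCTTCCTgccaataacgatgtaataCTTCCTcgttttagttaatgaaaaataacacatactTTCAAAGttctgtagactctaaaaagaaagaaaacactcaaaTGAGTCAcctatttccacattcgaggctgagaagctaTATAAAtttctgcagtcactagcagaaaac
MMP15: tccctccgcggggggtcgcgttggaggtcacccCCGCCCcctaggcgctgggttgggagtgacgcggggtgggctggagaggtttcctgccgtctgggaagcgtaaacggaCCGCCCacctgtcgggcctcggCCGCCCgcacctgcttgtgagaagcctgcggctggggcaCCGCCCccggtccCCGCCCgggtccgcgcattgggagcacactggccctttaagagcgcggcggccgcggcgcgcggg
TIMP1: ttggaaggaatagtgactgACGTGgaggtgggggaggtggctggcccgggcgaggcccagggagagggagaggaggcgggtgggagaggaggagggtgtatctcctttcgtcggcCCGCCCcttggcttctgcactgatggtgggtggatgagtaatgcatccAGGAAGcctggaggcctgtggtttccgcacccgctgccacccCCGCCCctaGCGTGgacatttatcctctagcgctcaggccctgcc
In the MMP7 stretch the AP-1 letters begin 67 bases before the start, the 2 TCF/LEF matches at 194 and 109 bases (the latter on the other strand), the 2 AGGAAG matches at 169 and 145 bases (both on the other strand), and the TATA box at 30 bases. Among the 35116 RefSeq promoters searched over the same 250 bases, 4.2% held the AP-1 letters, 7.99% a TCF/LEF match, 28.7% AGGAAG, 10.7% TATAAA, 42.6% a GC box and 43.2% a hypoxia response core. The MMP15 stretch held 5 GC boxes and none of the other letters. The TIMP1 stretch held 2 GC boxes, 1 AGGAAG and 2 hypoxia response cores. MMP14 held 1 GC box and 1 hypoxia response core, and TIMP3 held 5 GC boxes and 1 hypoxia response core. A match of letters describes the sequence, not a bound site.

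KDM1A, the target of the siRNA, was lower in siLSD1 by 2.79-fold after normalization, with no overlap between the arrays of the groups. Array medians of the non-normalized signal were 168 to 179.9, and a row is called detected on an array where its deposited detection p is under 0.01. Rows detected on at least 4 of the 8 arrays, 12870 in all, were compared with limma, 2 biological samples against 2. Limma called 0 of them at an adjusted p of 0.05 (0% of those tested), while 1515 (11.8%) had an unadjusted p under 0.05, 762 higher (5.92%) and 753 lower (5.85%). With all 8 arrays entered and the technical replicates modelled, 375 (2.91%) were called. The siControl replicates lay further apart than the siLSD1 replicates (SD over rows of the log2 difference between replicates 0.50 and 0.18), so most differences below are also given against each siControl replicate alone. The detection p left out bright rows too: 3204 rows brighter than all 92 ERCC control rows on at least 4 arrays did not pass this filter. Of 10 hepatocyte markers 8 were detected on all arrays, among them ALB, APOA1 and TTR. ALB and TF had signals of 57838 to 66200 and 58071 to 65997, close to the highest signals of the arrays (66137 to 71430), where a scanner may no longer resolve levels. APOA1 was at 7636 and 7709 in siControl replicate 1, 21171 and 18660 in siControl replicate 2 and 10940 to 13213 in siLSD1, and TTR at 1065 and 1085 in siControl replicate 1, 2960 and 2354 in siControl replicate 2 and 1508 to 1709 in siLSD1, so both lay between the siControl replicates in siLSD1. Other hepatocyte markers went otherwise. Of the 9 compared, 5 had higher estimates in siLSD1 (51.4% of all compared rows) and 4 lower. On the normalized scale all siLSD1 arrays lay above all siControl arrays in 1, FGB (12.9% of all compared rows), and below in 1 (12.2%). The summed signal of 7 fibroblast markers was 2008 to 2225 in siControl and 1873 to 2098 in siLSD1, and that of 4 endothelial markers 462 to 536 and 484 to 543. For 6 leukocyte and macrophage markers it was 2869 to 3415 in siControl and 2446 to 2684 in siLSD1. COL3A1, PDGFRB, DCN and ACTA2 of fibroblasts, PTPRC, CD14 and CSF1R of leukocytes, and all 4 endothelial markers, PECAM1, VWF, CDH5 and KDR, counted as detected on no array. CD14 was nevertheless at 215 to 346, above the brightest control row on 7 arrays, and DCN at 327 and 323 in siControl replicate 1 against 137 to 157 on the other arrays, so that the lack of a detection call here does not show absence. LUM, CD68 and CD163 were detected on all arrays, and the part of these markers in the results was not tested. MMP1, MMP2, MMP9 and MMP14 were not detected on any array, and TIMP3 was detected on 1, which left MMP7, MMP15, TIMP1 and TIMP2 as the 4 genes compared.

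MMP7 encodes matrilysin, a short secreted MMP without the hemopexin domain of most relatives. Before normalization, siControl replicate 1 gave signals of 207 and 178 and siControl replicate 2 signals of 268 and 284. For siLSD1 the signals were 1197 and 1126 (replicate 1) and 986 and 1004 (replicate 2). Each siLSD1 array lay far above each siControl array, and within siControl both arrays of replicate 2 lay above both of replicate 1. Background-corrected and quantile-normalized log2 levels averaged 7.56 ± 0.39 (SD, n = 2) for siControl. For siLSD1 they averaged 10.03 ± 0.05 (SD, n = 2). The log2 difference was 2.47 ± 0.22 (standard error of the limma fit), or 5.54-fold, and MMP7 ranked 2 among the 12870 compared rows by higher difference. Against siControl replicate 1 the level was 6.71-fold higher, and against replicate 2 it was 4.57-fold higher. On both arrays of siControl replicate 1 MMP7 counted as detected but lay below the brightest ERCC control row (222 and 179.9), so the fold against that replicate is uncertain. From bulk RNA, more cells with MMP7 RNA and more MMP7 RNA per cell cannot be told apart. The siControl signals were close to the dimmest that counted as detected: the lowest signal of a detected row was 165 and 159.6 on the arrays of siControl replicate 1. With signals this low, the size of the difference can lean on how background was treated. It was 2.24 on the log2 scale with no background correction and 2.24 on the authors' normalized values, but 0.51 after neqc. That method infers the background from the detection p-values, from which the negative control signals it needs could not be recovered here. Its background SD came to 799 to 1101 signal units, several times the siControl signal of MMP7.

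**Figure D1:**
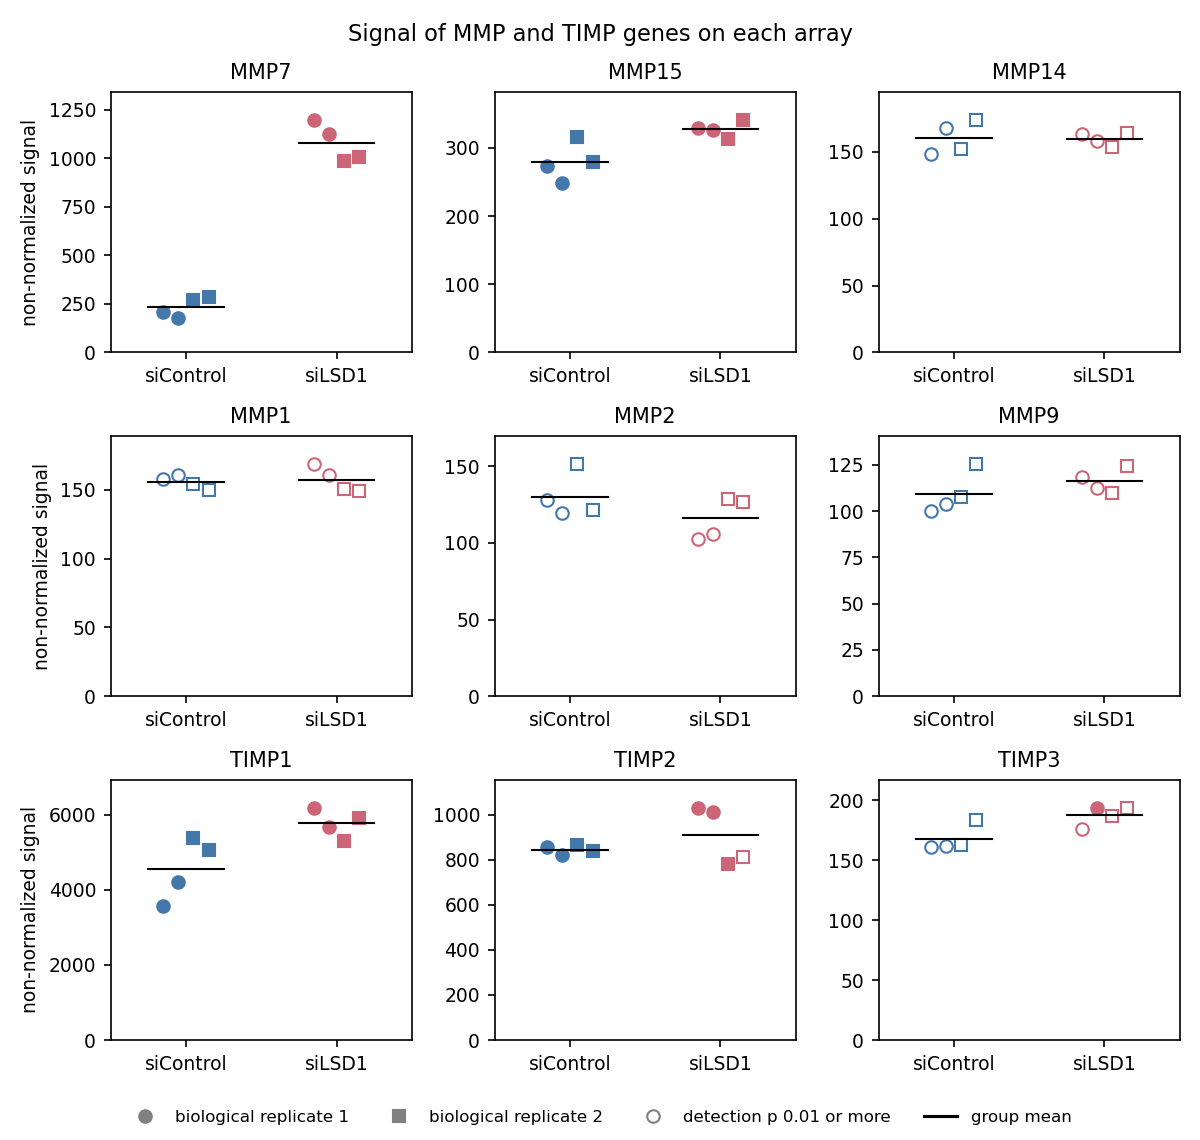
Non-normalized signal (vertical axes, linear, from 0) of the 6 MMP and 3 TIMP genes on each siControl (blue) and siLSD1 (red) array. Circles are biological replicate 1, squares biological replicate 2, open symbols are arrays on which the row was not detected, and lines are group means. MMP7 runs from 178 to 284 in siControl and from 986 to 1197 in siLSD1, while MMP1, MMP2, MMP9 and MMP14 stay at or below 174 with open symbols throughout.

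**Figure D2:**
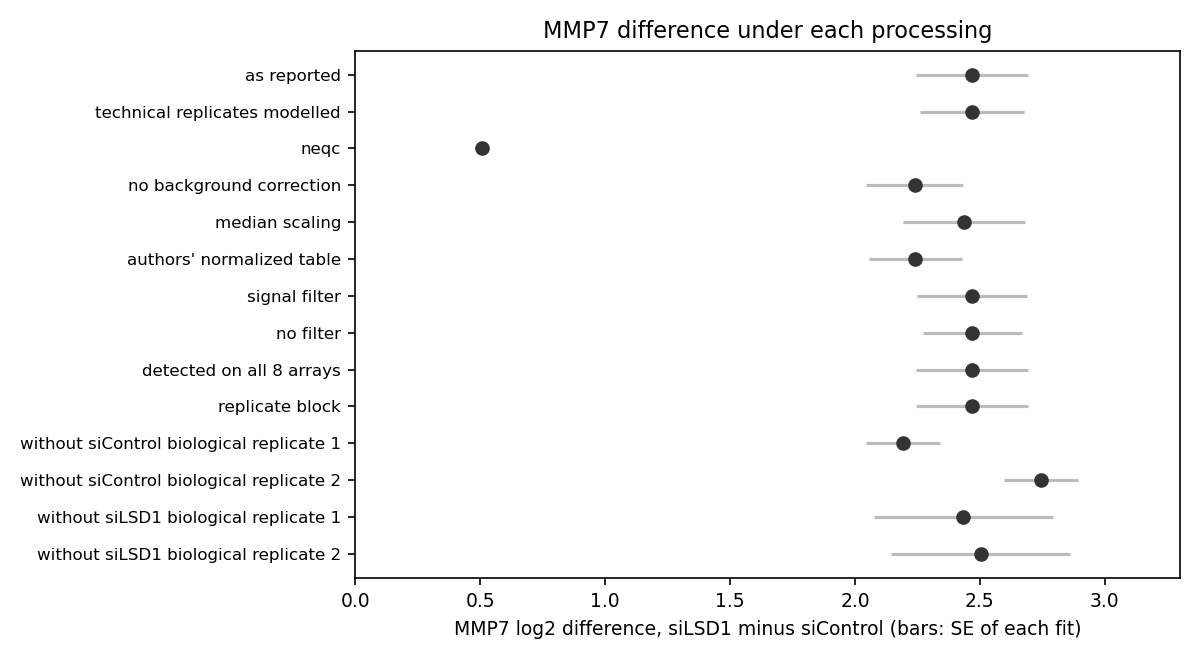
MMP7 log2 difference, siLSD1 minus siControl (horizontal axis), under each processing alternative, with the standard error of each fit as bars. The value lies between 2.19 and 2.75 except after neqc, where it is 0.51.

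MMP7 and MMP1 belong to a row of MMP genes on human chromosome 11, where MMP7, MMP20, MMP27, MMP8, MMP10, MMP1, MMP3, MMP12 and MMP13 follow each other in that order in the RefSeq annotation. MMP7, at the end of the row, was the one detected, on all 8 arrays. The other 8 genes of the row were detected on no array, with signals from 79.4 to 189. MMP1, interstitial collagenase, which starts the breakdown of fibrillar collagens, gave 158, 161, 154 and 150.1 on the siControl arrays and 169, 160.4, 150.3 and 149 on the siLSD1 arrays. Its groups overlapped, and its detection p was 0.134 to 0.374. The protein-coding genes on either side were also examined, a choice made after values had been seen. On the MMP7 side TMEM123 had a log2 difference of 0.34 ± 0.19, the apoptosis inhibitor BIRC2 0.10 ± 0.16, and its paralog BIRC3 -1.23 ± 0.66, or -2.26 and -0.19 against siControl replicates 1 and 2. BIRC3 lay lower on all siLSD1 arrays than on any siControl array. On the MMP13 side DCUN1D5 stood at 0.14 ± 0.15 and DYNC2H1 at -0.03 ± 0.15. For the 4 neighbours other than BIRC3 the differences against either siControl replicate lay between -0.09 and 0.51. None of these 5 neighbours had an estimate near that of MMP7, and the estimates lay on either side of 0.

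**Figure D3:**
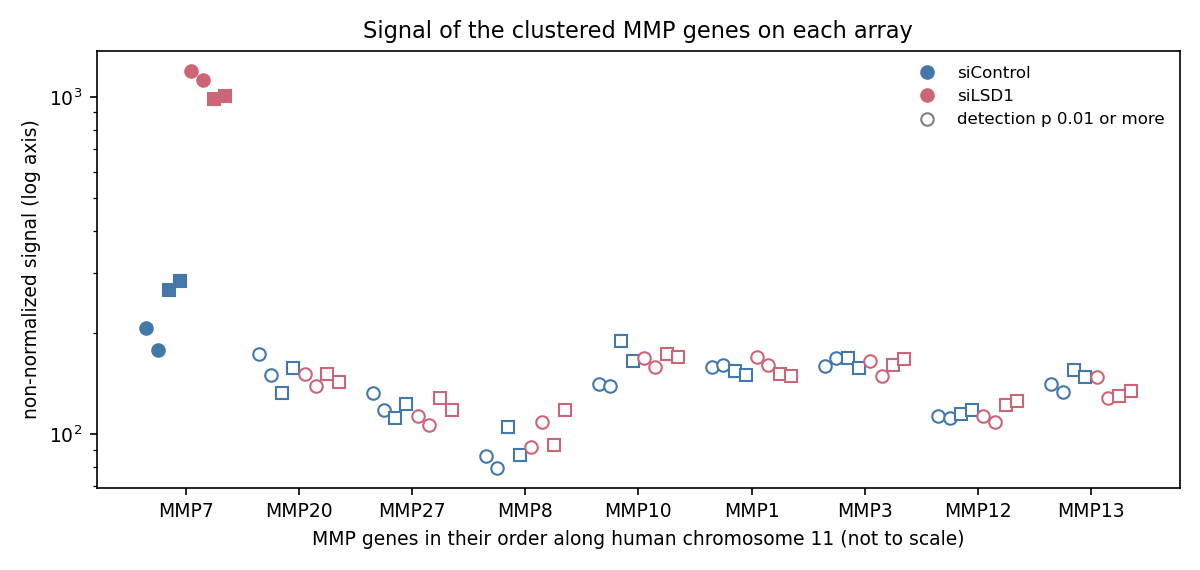
Non-normalized signal (vertical axis, log) on each array of the 9 MMP genes that lie in a row on human chromosome 11, in their order and not to scale. Filled symbols have a detection p under 0.01, and circles and squares are biological replicates 1 and 2. MMP7 alone has filled symbols; the other 8 genes stay between 79.4 and 189 with open symbols.

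MMP2 and MMP9 are the gelatinases, which cut denatured collagen and type IV collagen. MMP2 signals were 128, 119.9, 152 and 121 on the siControl arrays and 103, 106, 129 and 127 on the siLSD1 arrays. MMP9 signals were 100.1, 104, 108 and 126 in siControl and 118, 112, 109.6 and 124 in siLSD1. Both gelatinases overlapped between the groups, with detection p-values of 0.308 to 0.962 for MMP2 and 0.77 to 0.949 for MMP9, so that no fold is given. In type IV collagen, a substrate of these enzymes, COL4A1 and COL4A2 were both detected and stood at log2 differences of -0.22 ± 0.15 and -0.18 ± 0.21. Against siControl replicates 1 and 2 these were -0.18 and -0.26 for COL4A1 and -0.05 and -0.31 for COL4A2.

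MMP14 and MMP15 are membrane-type MMPs, anchored in the plasma membrane. MMP14, an activator of the MMP2 precursor, was not detected, at signals of 149 to 174 in siControl and 153 to 164 in siLSD1. MMP15 was detected on all 8 arrays. Its signals were 274, 249, 317 and 280.2 in siControl and 329.5, 326, 313 and 341 in siLSD1. On this scale 1 siLSD1 array, at 313, lay below 1 siControl array, at 317. On the normalized scale all 4 siLSD1 arrays lay above all 4 siControl arrays. Normalized log2 levels averaged 7.90 ± 0.09 (SD, n = 2) for siControl and, for siLSD1, 8.17 ± 0.07 (SD, n = 2). Its log2 difference was 0.27 ± 0.15, or 1.20-fold, with 0.33 against siControl replicate 1 and 0.21 against replicate 2.

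TIMP1 is an inhibitor of most secreted MMPs and is the TIMP most often measured in blood in liver fibrosis. For siControl, replicate 1 had signals of 3574 and 4206 and replicate 2 had 5374 and 5069.7. For siLSD1, replicate 1 had 6190.0 and 5663 and replicate 2 had 5305 and 5909. On the non-normalized scale 1 siLSD1 array, at 5305, lay below the higher array of siControl replicate 2, whereas after normalization all siLSD1 arrays lay above all siControl arrays. Normalized log2 levels averaged 12.09 ± 0.38 (SD, n = 2) for siControl and, for siLSD1, 12.50 ± 0.03 (SD, n = 2), which put siLSD1 higher by 0.41 ± 0.22 or 1.33-fold. The siLSD1 level was 1.60-fold that of siControl replicate 1 but 1.11-fold that of replicate 2, and replicate 2 exceeded replicate 1 within siControl by 0.53 on the log2 scale, more than the groups differed.

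TIMP2, which inhibits MMP2 and also takes part in its activation by MMP14, was detected on all 4 siControl and 3 of 4 siLSD1 arrays. Its signals were 855, 819, 866 and 837 in siControl. In siLSD1 they were 1032 and 1012 for replicate 1 but 780.0 and 812 for replicate 2. Before normalization replicate 1 thus lay above and replicate 2 below all siControl arrays. After normalization siLSD1 replicate 2, at a log2 level of 9.656, lay between siControl replicates 1 and 2, at 9.624 and 9.660. The array with 812 had a detection p of 0.0322, although rows with signals as low as 170.3 were detected on that array, so the deposited detection p does not rank rows by their own signal. Normalized log2 levels averaged 9.64 ± 0.03 (SD, n = 2) for siControl and, for siLSD1, 9.77 ± 0.15 (SD, n = 2). The difference of 0.12 ± 0.16 was smaller than its standard error, and it was 0.23 with siLSD1 replicate 1 alone and 0.01 with replicate 2 alone. Against siControl replicates 1 and 2 it was 0.14 and 0.11.

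TIMP3, a matrix-bound TIMP that also inhibits ADAM17, gave signals of 161, 162, 162 and 184 on the siControl arrays and 176, 194, 187 and 194 on the siLSD1 arrays. It was detected on no siControl array and on 1 siLSD1 array, the second of replicate 1. Its signal was above all ERCC control rows on 1 siControl and 3 siLSD1 arrays, but for want of detection it was not compared. The groups overlapped, since 1 siControl array, at 184, lay above the lowest siLSD1 array, at 176, and no fold is given. Of the 4 genes compared, all had higher estimates in siLSD1 (51.4% of the compared rows), and 1 exceeded 2-fold (0.831% of the compared rows were over 2-fold higher). On the normalized scale 3 had all siLSD1 arrays above all siControl arrays (12.9% of the compared rows), of which MMP15 and TIMP1 overlapped before normalization. These counts describe the comparison through which MMP7 was picked.

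The rows whose profile over the 4 biological samples was most like that of MMP7 were TSPAN1, ADH1C, HP, PAQR9 and the row LOC389160, the name in the deposited table. Likeness was the root mean square difference between log2 levels centred on each row's own mean, and it was 0.15, 0.17, 0.25, 0.31 and 0.32 in that order. TSPAN1, a tetraspanin, had the centred levels nearest to those of MMP7, with a log2 difference between groups of 2.21 ± 0.26. ADH1C, an alcohol dehydrogenase with near-identical copies that may share its probe, stood at 2.22 ± 0.31, and haptoglobin (HP), whose gene also has a close relative, at 1.99 ± 0.19. PAQR9 stood at 1.87 ± 0.26 and LOC389160 at 2.22 ± 0.45. In each of the 5, as in MMP7, siControl replicate 2 lay between siControl replicate 1 and both siLSD1 samples. The rows were chosen by likeness over these same samples, so a shared order is no separate result. TSPAN1, HP and LOC389160 were detected on 2 of 4 siControl arrays, those of replicate 2. In siControl replicate 1 TSPAN1 had signals of 172 and 130.3, HP 169 and 178 and LOC389160 152 and 148, so the differences of these 3 rows and their likeness to MMP7 rest in part on signals not above background. The other compared MMP and TIMP genes lay at 1.03 (TIMP1), 1.11 (MMP15) and 1.19 (TIMP2) from MMP7 on the same measure.

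**Figure D4:**
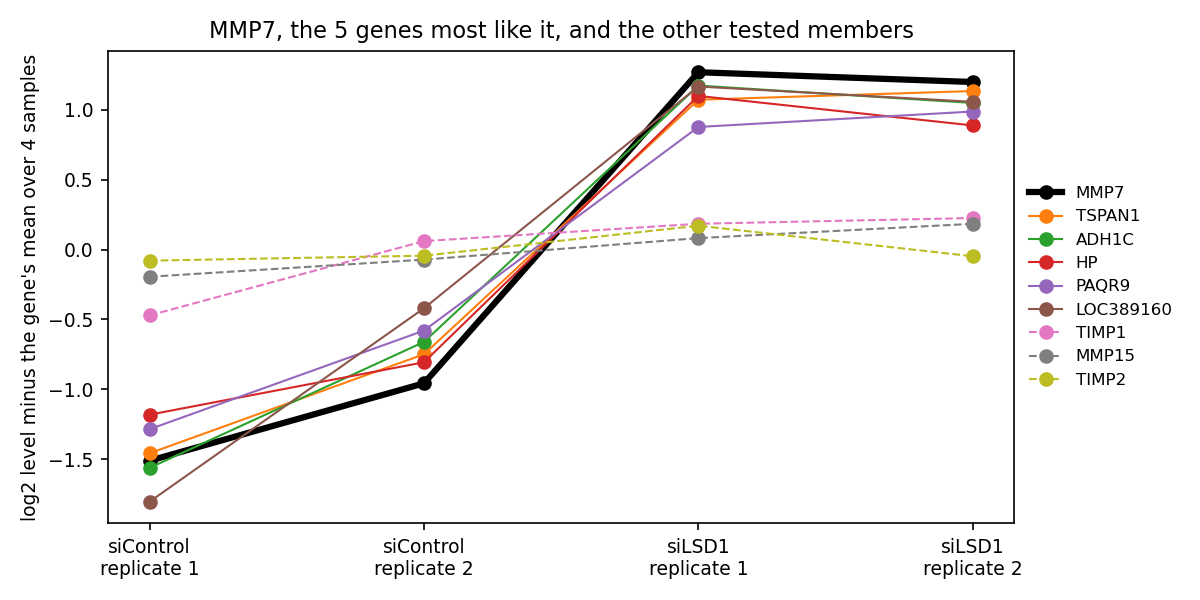
Log2 level minus the gene's own mean (vertical axis) in the 4 biological samples for MMP7 (thick black line), the 5 rows most like it (solid) and TIMP1, MMP15 and TIMP2 (dashed); lines only join values of a gene. The solid lines were chosen for their likeness to MMP7 over these samples and follow it, with siControl replicate 2 between siControl replicate 1 and the siLSD1 samples. The dashed lines stay nearer to 0.

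The rest of the MMP family and TIMP4 were mostly not detected. Of 19 such genes, 15 were detected on no array and 4 were compared. Limma called 0 of the 4 in either direction, as did the model of technical replicates. An unadjusted p under 0.05 was found for 2, 1 higher and 1 lower (11.8% of all compared rows in either direction). MMP11, stromelysin-3, was detected on 2 of 4 siControl arrays, those of replicate 2, and on all siLSD1 arrays. Its signals were 155, 165, 224 and 228 in siControl and 324, 269.9, 251 and 362 in siLSD1, all siLSD1 arrays above all siControl arrays. The MMP11 difference was 0.79 ± 0.23 on the log2 scale (adjusted p = 0.339 with limma over all rows), which rests in part on replicate 1 signals not above background. Against siControl replicate 2, where it was detected, it was 0.51. MMP23B, an MMP with an unusual cysteine-rich and immunoglobulin-like part, had a difference of -0.72 ± 0.28 (limma adjusted p = 0.422), or -1.12 and -0.33 against siControl replicates 1 and 2, and its near-copy MMP23A, whose row may share signal with it, -0.24 ± 0.17 (-0.40 and -0.08). The membrane-type MMP24 stood at -0.22 ± 0.31, with -0.67 against siControl replicate 1 and 0.22 against replicate 2. On the normalized scale 1 of the 4, MMP11, had all siLSD1 arrays above all siControl arrays (12.9% of all compared rows). In 1, MMP23B, all lay below (12.2%). The median of the 4 was -0.23, against 0.01 over all 12870 rows, and it was -0.53 and 0.07 against siControl replicates 1 and 2.

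Activators and inhibitors outside the family were also compared. Of 16 genes of the plasminogen system and other MMP activators and inhibitors, 7 were compared. BSG and HPN were brighter than all control rows on at least 4 arrays but counted as detected on none, and were not compared; BSG, the MMP inducer basigin, had signals of 2221 to 3252 in siControl and 2009 to 2318 in siLSD1. Limma called 0 of the 7 compared genes, as did the model of technical replicates. An unadjusted p under 0.05 was found for 2, both higher (5.92% of all compared rows). The median log2 difference was 0.43 (0.32 and -0.04 against siControl replicates 1 and 2), against 0.01 over all compared rows. SERPINF2, the inhibitor of plasmin, had a difference of 0.84 ± 0.75, which was 2.04 against siControl replicate 1 and -0.36 against replicate 2. FURIN, a protease that activates membrane-type MMP precursors, was at 0.54 ± 0.19 (limma adjusted p = 0.382). The urokinase receptor PLAUR was at 0.51 ± 0.19 (limma adjusted p = 0.396). Against siControl replicates 1 and 2 these were 0.73 and 0.35 for FURIN and 0.32 and 0.70 for PLAUR. Both were among 3 of the 7 with all normalized siLSD1 arrays above all siControl arrays (12.9% of all compared rows), while 0 had all below (12.2%). Of 30 ADAM and ADAMTS proteases, relatives with their own matrix and shedding targets, 7 were compared and 0 called by limma. An unadjusted p under 0.05 was found for 1 (lower, 5.85% of all compared rows). The median of these 7 was -0.15 (0.14 and -0.03 against siControl replicates 1 and 2). On the normalized scale 1 had all siLSD1 arrays above all siControl arrays (12.9% of all compared rows) and 1 all below (12.2%). ADAM15 had signals of 3536, 3908, 2729.6 and 2617 in siControl and 1783, 1571, 1772 and 1839.8 in siLSD1, with all siLSD1 arrays below. Its log2 difference was -0.82 ± 0.20 (limma adjusted p = 0.295; 0.0419 with the technical replicates modelled), or -1.01 and -0.63 against siControl replicates 1 and 2. ADAMTS4, an aggrecanase, stood at -0.41 ± 0.26 (-0.77 and -0.05 against siControl replicates 1 and 2) and the sheddase ADAM17 at 0.24 ± 0.15 (0.18 and 0.31). ADAMTS6, at -0.28 ± 0.30, changed sign between the controls, with 0.14 against siControl replicate 1 and -0.71 against replicate 2. ADAM19 and ADAMTS15 were brighter than all control rows on at least 4 arrays but were not compared for want of detection. ADAM19 had signals of 192 to 233 in siControl and 294 to 310.1 in siLSD1.

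Substrates were described as 2 lists. Of 27 basement membrane and other matrix genes, 12 were compared and 0 called by limma, and 1 had an unadjusted p under 0.05 (lower, 5.85% of all compared rows). With the technical replicates modelled 0 were called (2.91% of all compared rows). On the normalized scale 1 had all siLSD1 arrays above all siControl arrays (12.9% of all compared rows) and 3 all below (12.2%). Estimates were lower for 10 and higher for 2 (51.4% of all compared rows were higher). Their median was -0.13 (0.04 and -0.30 against siControl replicates 1 and 2), against 0.01 over all compared rows. The laminin chains LAMA4, LAMC1 and LAMB2 stood at -0.51 ± 0.15, -0.48 ± 0.24 and -0.39 ± 0.20, and tenascin C (TNC) at 0.37 ± 0.16. Against siControl replicates 1 and 2 these were -0.59 and -0.43 for LAMA4, -0.25 and -0.72 for LAMC1, -0.20 and -0.58 for LAMB2 and 0.48 and 0.25 for TNC. Further genes of the list, among them LAMB3, AGRN and COL18A1, were brighter than all control rows on at least 4 arrays but counted as detected on none, and were not compared. Of 7 proteins that MMP7 is known to cut at the cell surface or in solution, 4 were compared and 0 called by limma. An unadjusted p under 0.05 was found for 1 of the 4 (higher, 5.92% of all compared rows). Their median was 0.33, or 0.62 and 0.37 against siControl replicates 1 and 2. On the normalized scale 1 of the 4 had all siLSD1 arrays above all siControl arrays (12.9% of all compared rows) and 0 all below (12.2%). Osteopontin (SPP1) had signals of 7037, 7168, 10958 and 9764 in siControl and 15443, 14669, 13638 and 14272 in siLSD1. All siLSD1 arrays of SPP1 lay above all siControl arrays, with a difference of 0.81 ± 0.24 (limma adjusted p = 0.34; 0.0419 with the technical replicates modelled), or 1.11 and 0.50 against siControl replicates 1 and 2. E-cadherin (CDH1) stood at 0.47 ± 0.51 and the growth factor precursor HBEGF at -0.67 ± 0.77. HBEGF changed sign between the controls, at -1.89 against siControl replicate 1 and 0.55 against replicate 2, as did CDH1, at 1.25 and -0.31. IGFBP3, a carrier of insulin-like growth factors, was at 0.18 ± 0.17 (0.13 and 0.23). SDC1 was brighter than all control rows on at least 4 arrays and was not compared.

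The last list held transcription factors known from MMP promoters, those of the AP-1, ETS and TCF/LEF families with CTNNB1, SP1, NFKB1 and RELA. Of these 21 genes 17 were compared and 0 called by limma. An unadjusted p under 0.05 was found for 4, all higher (5.92% of all compared rows), and estimates were higher for 10 (51.4% of all compared rows) and lower for 7, with a median of 0.05. In 7 of the 17 all siLSD1 arrays lay above all siControl arrays (12.9% of all compared rows), and in 1, FOS, below (12.2% of all compared rows). JUNB, an AP-1 subunit, had signals of 576, 467, 1036 and 824 in siControl and 1905, 2189.7, 2003 and 2029.7 in siLSD1. Its log2 difference was 1.65 ± 0.31 (limma adjusted p = 0.243; 0.00991 with the technical replicates modelled), 2.08 and 1.21 against siControl replicates 1 and 2. ETS2 stood at 0.89 ± 0.31 and ETV5 at 0.87 ± 0.25, both ETS-family factors with all siLSD1 arrays above. Against siControl replicates 1 and 2 these were 1.34 and 0.45 for ETS2 and 1.17 and 0.57 for ETV5. FOSB stood at 0.72 ± 0.43, with 0.07 against siControl replicate 1 and 1.38 against replicate 2. Of other AP-1 subunits, FOS stood at -0.62 ± 0.28 (limma adjusted p = 0.48; -1.004 and -0.23 against siControl replicates 1 and 2) and JUN at 0.05 ± 0.15, smaller than its standard error (limma adjusted p = 0.936). CTNNB1, the β-catenin of Wnt signalling, stood at -0.06 ± 0.16 (-0.18 and 0.06) and the TCF/LEF factor TCF7L2 at 0.37 ± 0.17 (0.52 and 0.23), while LEF1, TCF7 and TCF7L1 were detected on no array. How these factors relate to the MMP7 level was not tested.

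**Figure D5:**
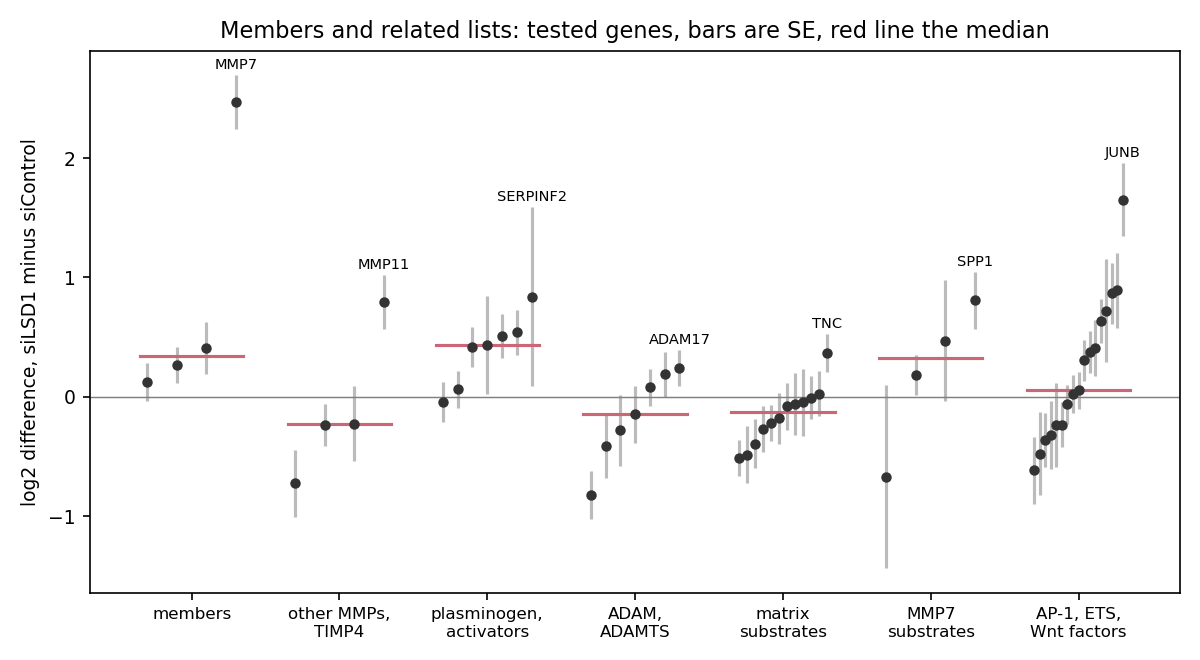
Log2 difference, siLSD1 minus siControl (vertical axis), of each compared gene among the MMP and TIMP genes picked by symbol (labelled members) and in the 6 related lists, with the standard error of the limma fit as bars and the list median in red. MMP7 at 2.47 is the highest point, JUNB at 1.65 the next, and the medians of the related lists lie between -0.23 and 0.43.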

How the data were processed

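Total RNA of Huh-1 cells was measured on 8 Illumina arrays. Per the file headers, the authors deposited non-normalized bead intensity and a detection p-value for each array, 1 row per symbol; the submitters' processing notes name BeadStudio 3.1.1.0. The authors' second deposited table holds normalized intensity on a linear scale; its method, the summary over probes and the kind of array are not given in the sources used here. Signals were corrected with normexp (offset 50), quantile-normalized and log2-transformed. Technical arrays were averaged, and 2 siLSD1 samples were compared with 2 siControl samples with lmFit and eBayes of limma 3.58.1 under R 4.3.3 (two-sided tests, Benjamini-Hochberg adjustment). The 12870 rows tested were detected (detection p under 0.01) on 4 arrays or more, without the 92 ERCC control rows. On simulated data with each row's measured spread, the fit returned the differences put in on average, but called the larger ones in part and the smaller ones not at all. Older symbols were updated with the RefSeq table (2689 rows; KDM1A is AOF2 in the files).

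The genes, lists and settings were chosen with earlier results of these data known. Genes named were KDM1A, the 9 genes, the 5 rows most like MMP7 and, per related list, up to 4 with the largest absolute difference, of which 1 is not reported here; COL4A1, COL4A2, FOS, JUN, CTNNB1, TCF7L2, the chromosome 11 neighbours, the bright rows left out and genes detected on no array were added after values were seen. No exact permutation test (two-sided) of 2 samples against 2 can go below 0.333, and having 2 biological samples per group limits precision. Replicates are biological per the labels, which do not say whether they came from separate cultures. The p-values therefore set a difference against the spread between these samples only.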

Additional observations from a re-analysis of the deposited data

Results flagged for a closer look

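Tested over 68 sets of 4 arrays (34 named genes in each group), 4 had an array far from the other 3. The rate of about 1 in 20 that chance gives holds for independent values, which these are not, since each set is 2 technical arrays of each of 2 biological replicates. TIMP2 in siControl had array 4 at a log2 level of 9.69 against 9.62 to 9.63 on the other arrays (gap over range 0.899). ADAM17 in siControl had array 3 at 8.99 against 9.23 to 9.26 (0.887). TNC in siLSD1 had array 4 at 8.72 against 8.80 to 8.81 (0.854). JUNB in siLSD1 had array 1 at 10.79 against 11.05 to 11.09 (0.899). The cause was not tested in any of the 4.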

How the results depend on the processing

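The MMP7 difference kept its direction under every alternative run. It was 0.51 after neqc, whose inferred background SD of 799 to 1101 exceeds the siControl signals of MMP7, and MMP15 fell to 0.03 in the same setting. Leaving out a biological replicate gave MMP7 differences from 2.19 to 2.75 and leaving out an array 2.41 to 2.53; for TIMP1 the former range was 0.14 (without siControl replicate 1) to 0.68 (without siControl replicate 2). Limma's count of called rows was 0 in the comparison of 2 with 2 but 375 with the technical replicates modelled, 2180 without siControl biological replicate 1 and 5006 without siControl biological replicate 2 (range 0 to 5006); in the last pair the spread comes from the siLSD1 pair, which the lone siControl sample is assumed to share. With the technical replicates modelled 1 of 7 compared ADAM and ADAMTS proteases, 1 of 4 MMP7 substrates and 1 of 17 promoter factors were called (2.91% of all compared rows). Leaving out biological replicates gave 0 to 4 called for other MMPs, 0 to 3 for plasminogen and other activators, 0 to 4 for ADAM and ADAMTS, 0 to 5 for matrix substrates, 0 to 3 for MMP7 substrates and 0 to 12 for promoter factors. In that order the lists held 4, 7, 7, 12, 4 and 17 compared genes, and all compared rows numbered 12870. Every list count above 0 in these ranges came from leaving out a siControl replicate, which also raised the count over all rows. Those fits hold 1 siControl sample and take their spread from the siLSD1 pair. The ranges therefore cannot set any list apart from the other rows. The replicate number as a block called 0 rows, with MMP7 at 2.47 ± 0.22. The labels do not tie same-numbered samples, and their deviations correlated at 0.12 over rows. Of the 5 rows most like MMP7, 0 stayed after neqc and 2 with detection required on all arrays, which leaves out 3 of them. MMP7 lay below the brightest control row on both arrays of siControl replicate 1, which limits the precision of its fold.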
